A study of Mus musculus with 36 samples.

Results

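The genes described here are 10 members of 3 families of synaptic adhesion molecules, Slitrk2, Slitrk3 and Slitrk6 of the SLITRK family, Lrrtm1, Lrrtm2, Lrrtm3 and Lrrtm4 of the LRRTM family, and Lrrc4, Lrrc4b and Lrrc4c of the LRRC4 family. They were chosen by their symbols, with earlier results of these data known. The rows of the count table whose Ensembl identifier carries these symbols gave all 10, of 52636 genes in the table. The libraries came from S100β-GFP;NG2-dsRed transgenic mice, in which GFP is made from a promoter of S100b and dsRed from that of Cspg4, which encodes the proteoglycan NG2. Muscle of the diaphragm, chest and limbs was dissociated and fluorescence sorting gave perisynaptic Schwann cells (PSCs, S100β-GFP+ and NG2-dsRed+), S100β-GFP+ cells without dsRed (GFP+ cells in what follows) and NG2-dsRed+ cells without GFP (dsRed+ cells). All mice carried both transgenes and no group received a treatment. Each library came from 1 mouse per the study's methods, and the mice were juveniles, with ages in the labels that start at postnatal day 15. The end of the labelled age range runs from day 21 to day 46, while the study's methods give days 15 to 21. PSC libraries numbered 9, GFP+ libraries 8 and dsRed+ libraries 10, and the design text of the series gives 7 GFP+ libraries, without naming the one left out. Gene counts per library lay between 5221655 and 9592875.

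These proteins span the membrane once and carry leucine-rich repeats outside the cell, which hold a partner on the opposite side of a synapse. SLITRK proteins bind receptor tyrosine phosphatases of the LAR type (Ptprd, Ptprs, Ptprf), LRRTM proteins bind neurexins and heparan sulphate proteoglycans, and LRRC4 proteins, also called netrin-G ligands, bind netrin-G1, netrin-G2 or LAR-type phosphatases. In the brain they are known mostly as neuronal organizers of synapses. PSCs are glial cells that cap the nerve terminal at the neuromuscular junction, and the comparison of the sorted populations asks which genes PSCs use at levels that other GFP+ or dsRed+ cells of muscle do not.

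Slitrk3, Lrrc4b, Lrrc4c and Lrrtm1 were the members with the most RNA per length in PSCs, and the 250 bases before their RefSeq start (build GRCm38.p6) are shown because these genes from separate chromosomes were high in the same libraries. Capitals mark a match to 1 of 3 motifs, ACAAAG (the core of a SoxE site), CAGCACC or GGACAGC (each a part of the REST site), searched on both strands.
Slitrk3 (chr3:73057067-73057316, - strand): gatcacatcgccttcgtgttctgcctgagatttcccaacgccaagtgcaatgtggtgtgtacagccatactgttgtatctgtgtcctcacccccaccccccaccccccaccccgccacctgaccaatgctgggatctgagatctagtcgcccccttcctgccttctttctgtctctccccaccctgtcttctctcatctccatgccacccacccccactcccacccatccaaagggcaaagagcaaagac
Lrrc4b (chr7:44442237-44442486, + strand): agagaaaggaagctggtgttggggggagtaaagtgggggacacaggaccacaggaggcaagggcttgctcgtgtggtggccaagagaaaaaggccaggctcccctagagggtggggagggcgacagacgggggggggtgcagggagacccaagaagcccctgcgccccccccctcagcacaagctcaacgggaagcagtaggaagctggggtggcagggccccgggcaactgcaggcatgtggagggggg
Lrrc4c (chr2:96317919-96318168, + strand): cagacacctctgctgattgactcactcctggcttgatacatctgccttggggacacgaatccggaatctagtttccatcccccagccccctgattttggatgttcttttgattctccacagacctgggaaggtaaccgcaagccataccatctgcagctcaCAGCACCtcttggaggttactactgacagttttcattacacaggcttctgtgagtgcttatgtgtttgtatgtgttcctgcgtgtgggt
Lrrtm1 (chr6:77242227-77242476, + strand): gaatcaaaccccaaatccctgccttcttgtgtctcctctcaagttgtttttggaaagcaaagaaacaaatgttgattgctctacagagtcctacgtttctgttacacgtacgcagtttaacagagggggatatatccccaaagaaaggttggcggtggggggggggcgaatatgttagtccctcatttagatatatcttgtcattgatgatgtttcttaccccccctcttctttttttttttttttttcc
Only the Lrrc4c sequence of these 4 held a motif, CAGCACC, and 5.73% of the 32851 promoters of the same length in the RefSeq table hold it on either strand. ACAAAG was found in 16.5% and GGACAGC in 5.28% of all promoters, and ACAAAG occurred before Lrrc4 and before 1 of the starts of Slitrk2. The GC content ran from 42.0% for Lrrtm1 through 49.6% for Lrrc4c and 57.6% for Slitrk3 to 66.0% for Lrrc4b, around the median of 52.4% over all promoters. These are descriptions of letters, and binding was not measured. The Slitrk3 window lies in the first intron of a longer transcript of GENCODE M21, and the Lrrc4b window precedes the second of its annotated first exons.

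Before the members are compared, the sorted populations are described by marker genes. The summed level of 7 Schwann lineage genes was between 2004 and 2930 CPM (counts per 1000000 after TMM scaling) in PSC libraries, between 61.05 and 415 in GFP+ libraries and between 33.96 and 78.87 in dsRed+ libraries. Sox10, which Schwann cells need, had a mean of 506 CPM in PSCs and 20.2 CPM in GFP+ cells, so GFP+ libraries held little RNA of this list for a Schwann cell sample, although the sum of 6 myelin genes was alike (2472 to 3329 CPM in PSCs and 1483 to 3519 CPM in GFP+ libraries). The same GFP+ libraries had 9677 to 21070 CPM on 5 fibroblast genes and 221.5 to 1456 CPM on 5 leukocyte genes, against 424.1 to 1745 and 2.075 to 11.47 CPM in PSCs. dsRed+ libraries had 1264 to 12030 CPM on the fibroblast genes. On 5 endothelial genes dsRed+ libraries had 1165 to 2618 CPM, GFP+ libraries 117.6 to 1980 CPM and PSC libraries 96.89 to 466.8 CPM. dsRed+ libraries also carried 6836 to 14780 CPM on 7 pericyte and smooth muscle genes. GFP+ libraries had 205.5 to 1543 CPM on these genes and PSC libraries 779.7 to 1399 CPM. Cspg4 is in this list, and its promoter drives the dsRed used for sorting. Its mean was 689 CPM in PSCs and 665 CPM in dsRed+ cells. The other 6 were lower in PSCs than in dsRed+ cells (23.1% of all genes tested were). The 8 neuronal genes summed to 3.964 to 15.61 CPM in PSCs, 7.111 to 30.74 CPM in GFP+ libraries and 25.67 to 50.94 CPM in dsRed+ libraries. Chat was at 0 in PSC and dsRed+ libraries. Most of the PSC and dsRed+ sums was Stmn2, with means of 5.40 and 34.5 CPM, so the lower PSC sum rests on 1 gene. Tubb3, the only other of these genes to pass the filter, was not called between them (1.41 and 1.05 CPM, edgeR adjusted p = 0.563). The part of neuronal RNA in the members' levels was not tested. Fewer cells of a type and less RNA per cell cannot be told apart in such samples. The part of cell mixture in the differences from GFP+ and from dsRed+ cells was not tested.

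Some libraries stand apart. PSC library 18 had 14616 genes with a count, and no other PSC library had fewer than 20203. Library 18 had no count of Slitrk2, Slitrk6, Lrrtm3, Lrrtm4 or Lrrc4, and the highest PSC level of Lrrtm1 and Lrrc4b. GFP+ libraries 14, 17 and 22 had 25890, 29103 and 38568 genes with a count, where the other libraries of all groups had at most 23292, and PSC library 31 had 26982 counts of the cartilage gene Col2a1. Results that move clearly are also given without these libraries.

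Of the 10 members, 8 passed the filter on low counts and entered the edgeR quasi-likelihood fit of 15330 genes, and Slitrk6 and Lrrtm4 did not. A member could pass through the PSC libraries alone, so the counts that follow describe the members and carry no weight as a set. Against GFP+ cells, 5 of the 8 were higher in PSCs at a Benjamini-Hochberg adjusted p under 0.05 (22.9% of all genes tested were) and 0 were lower (24.1% of all genes). Against dsRed+ cells, 7 were higher (20.9% of all genes) and 0 were lower (23.1% of all genes). The median log2 fold change of the 8 was 2.13 and 2.08, where the medians of all genes tested were 0.04 and 0.02. Slitrk3, Lrrtm1, Lrrtm2, Lrrc4b and Lrrc4c were higher than in both other populations (13.9% of all genes), and in each of these 5 every PSC library lay above every other library (3.24% of all genes). The summed CPM of the 10 members was 151.2 to 368.8 in PSC libraries, 8.75 to 30.61 in GFP+ libraries and 17.91 to 24.49 in dsRed+ libraries.

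**Figure D1:**
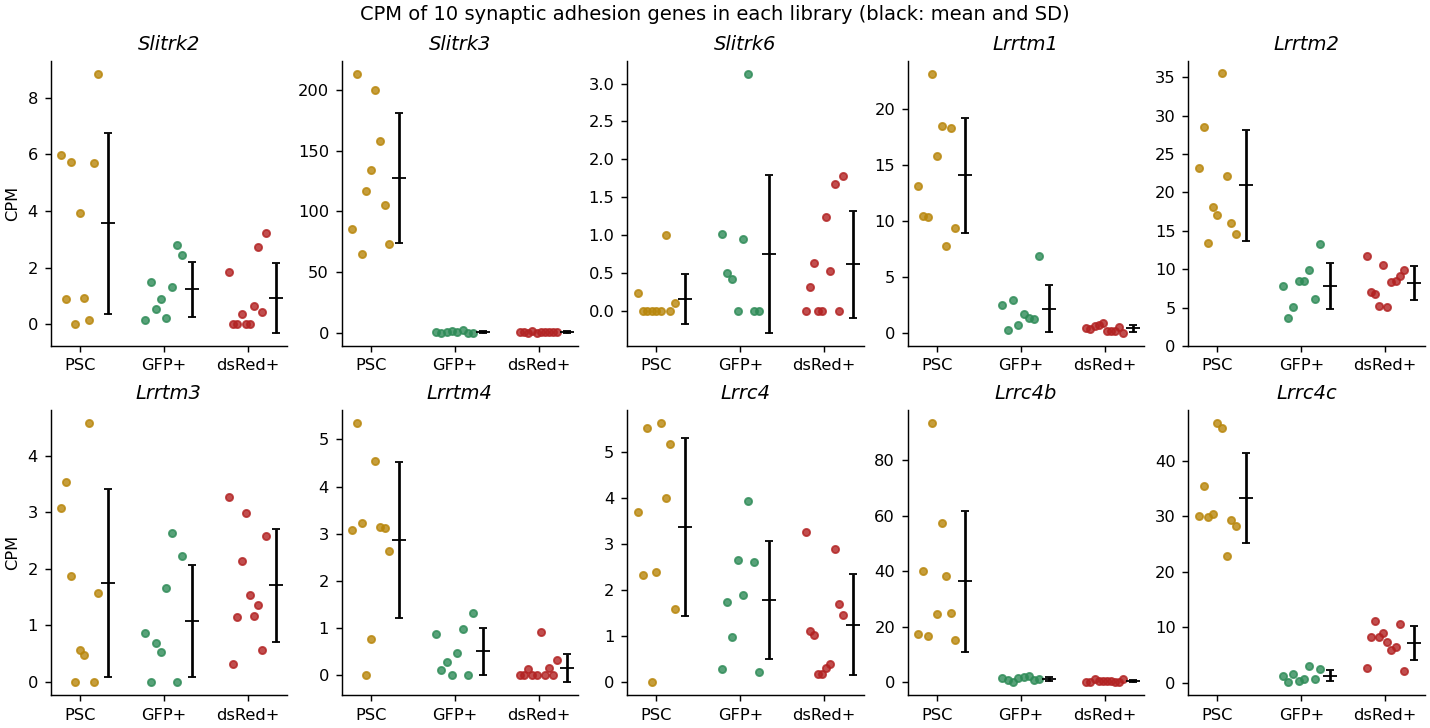
CPM of each member in every library of PSCs, GFP+ and dsRed+ cells, with 1 point per library and the mean and SD in black. The PSC points of Slitrk3, Lrrtm1, Lrrtm2, Lrrc4b and Lrrc4c lie above all points of the other cells, while those of the other 5 genes overlap them.

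Slitrk3, which in neurons partners with the phosphatase Ptprd at inhibitory synapses, had the most CPM of the members in each of the 9 PSC libraries and took between 41.5% and 62.7% of their summed CPM. Its level in PSC libraries was lowest at 64.6, with a median of 117 and a highest value of 213 CPM. In GFP+ libraries it reached 1.97 CPM at most (median 0.356) and in dsRed+ libraries 1.78 CPM (median 0.423). The log2 fold change in edgeR's quasi-likelihood fit was 7.68 ± 0.51 (SE, adjusted p = 4.6e-13) against GFP+ cells and 7.82 ± 0.46 (adjusted p = 3.04e-14) against dsRed+ cells. The GFP+ level rested on 29 counts in 8 libraries, of which libraries 14, 17 and 22 held 9, 2 and 12. Without these 3 libraries the log2 fold change was 9.35, and the difference between GFP+ and dsRed+ cells, 0.14 ± 0.57 with an adjusted p of 0.883 in the fit of all libraries, became -1.51 with an adjusted p of 0.0958.

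Slitrk2, a neuronal member of the family on chromosome X, was much lower. PSC libraries ranged from 0 to 8.84 CPM with a median of 3.92, GFP+ libraries from 0.145 to 2.79 with a median of 1.1, and dsRed+ libraries from 0 to 3.23 with a median of 0.39. The PSC libraries fell into separate sets, 5 at 3.92 CPM or more, above every other library, and 4 at 0.939 CPM or less, within the range of the other cells. The log2 fold change was 1.95 ± 0.79 against dsRed+ cells (edgeR adjusted p = 0.046) and 1.54 ± 0.84 against GFP+ cells (adjusted p = 0.135). The call against dsRed+ cells was lost in 14 of the 27 fits that left out 1 library, with the highest adjusted p of 0.0822 without PSC library 36.

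Slitrk6, known from the inner ear, was close to the detection limit, with 11 counts in 9 PSC libraries, 37 in 8 GFP+ libraries and 41 in 10 dsRed+ libraries. Its mean was 0.149 ± 0.330 CPM in PSCs, 0.751 ± 1.04 in GFP+ cells and 0.616 ± 0.705 in dsRed+ cells (SD). A library with 0 counts allows up to 0.237 to 0.709 CPM at these depths (3 counts, counting error only). The exact two-sided permutation test on log2 CPM gave p = 0.0857 for PSCs against GFP+ cells, p = 0.0885 against dsRed+ cells and p = 0.865 between the latter populations, so no difference was detectable.

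Among the LRRTM genes, Lrrtm1 separated the 3 populations. PSC libraries ran from 7.72 to 23.1 CPM (median 13.2), GFP+ libraries from 0.25 to 6.88 (median 1.49) and dsRed+ libraries from 0 to 0.876 (median 0.37). PSCs were higher by a log2 fold change of 2.71 ± 0.46 than GFP+ cells (edgeR adjusted p = 1.36e-05) and by 5.10 ± 0.49 than dsRed+ cells (adjusted p = 8.55e-10). GFP+ cells were themselves higher than dsRed+ cells by 2.39 ± 0.49 (adjusted p = 0.000305), and the highest of them, library 33 at 6.88 CPM, came close to the lowest PSC library. Lrrtm1 lies inside Ctnna2 on the opposite strand, and Ctnna2 had 21, 38 and 8 counts over the PSC, GFP+ and dsRed+ libraries against 1069, 97 and 26 of Lrrtm1.

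Lrrtm2, which encodes a neurexin ligand, had the smallest change of the genes that separated PSCs from all other libraries. It was at 13.5 to 35.5 CPM in PSC libraries (median 18.0), 3.62 to 13.3 CPM in GFP+ libraries (median 8.15) and 5.10 to 11.8 CPM in dsRed+ libraries (median 8.42). The log2 fold changes were 1.42 ± 0.24 (edgeR adjusted p = 1.72e-05) and 1.35 ± 0.22 (adjusted p = 1.33e-05), and the difference between the other populations was -0.07 ± 0.24 (adjusted p = 0.855). The gap between the lowest PSC library and the highest GFP+ library was small, 13.5 against 13.3 CPM. Lrrtm2 lies within Ctnna1 on the opposite strand and shares 95 exon bases with it. The library kit does not mark strand, so reads on these bases cannot be told apart. All of Lrrtm2 lies within the span of Ctnna1, and the part of Ctnna1 RNA in the Lrrtm2 counts was not tested. Ctnna1, which encodes α-catenin, had a mean of 240 ± 31.0 CPM in PSCs and 271 ± 40.3 CPM in dsRed+ cells (log2 fold change -0.17 ± 0.12, adjusted p = 0.235), and was higher in PSCs than in GFP+ cells by 0.68 ± 0.12 (adjusted p = 3.9e-05).

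Lrrtm3 passed the threshold in no comparison. Its mean was 1.74 ± 1.66 CPM in PSCs, 1.08 ± 0.991 CPM in GFP+ cells and 1.71 ± 0.999 CPM in dsRed+ cells (SD), and 2 of the 9 PSC libraries lay above all others. The log2 fold changes of PSCs were 0.74 ± 0.72 (edgeR adjusted p = 0.425) and 0.05 ± 0.66 (adjusted p = 0.961), so errors of this size would hide a moderate change. Without GFP+ libraries 14, 17 and 22 the first was 1.33 (adjusted p = 0.25). Its host on the opposite strand, Ctnna3, went the other way and was lower in PSCs than in GFP+ cells by -1.20 ± 0.48 (adjusted p = 0.0391) and than in dsRed+ cells by -1.89 ± 0.46 (adjusted p = 0.00121).

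Lrrtm4, the family member known to bind glypicans, had 231 counts in PSC libraries, 23 in GFP+ libraries and 10 in dsRed+ libraries. PSC libraries ran from 0 to 5.34 CPM with a median of 3.11, GFP+ libraries reached 1.33 CPM and dsRed+ libraries 0.927 CPM, and 7 of the 9 PSC libraries exceeded each library of the other cells. The exceptions were library 18 at 0 and library 20 at 0.765 CPM. Mean log2 CPM differed by 1.92 from GFP+ cells (exact two-sided permutation p = 0.00732) and by 2.70 from dsRed+ cells (exact p = 0.000368), and GFP+ and dsRed+ cells differed by 0.78 (exact p = 0.0767). These 3 tests and the 3 of Slitrk6 are not adjusted. Fitted with all 44705 genes that had a count, edgeR gave log2 fold changes of 2.54 ± 0.77 (adjusted p = 0.0112) and 4.10 ± 0.78 (adjusted p = 7.42e-05). That fit called 16556 and 8101 of the 44705 genes in these comparisons, 7793 and 960 of them with at most 30 counts over all libraries. Its adjusted p values are therefore not on the footing of those of the filtered fit. Of the 6147 exon bases of Lrrtm4, 1543 are shared with the antisense gene Gm4409, which had 9, 2 and 0 counts in the 3 populations.

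In the LRRC4 family, Lrrc4b, a ligand of LAR-type phosphatases, was at 15.2 to 93.4 CPM in PSC libraries with a median of 25.0. GFP+ libraries were between 0.138 and 2.47 CPM (median 1.28) and dsRed+ libraries between 0.142 and 1.29 CPM (median 0.458). The log2 fold changes were 4.86 ± 0.47 (edgeR adjusted p = 6.44e-10) and 5.99 ± 0.46 (adjusted p = 7.59e-12). The PSC libraries themselves varied widely, with a coefficient of variation of 69.8%, and the highest value came from library 18. Without it the log2 fold changes were 4.58 and 5.74. GFP+ cells exceeded dsRed+ cells by 1.14 ± 0.49, short of the threshold (adjusted p = 0.0769).

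Lrrc4c, the ligand of netrin-G1, was the most even member in PSCs, with a coefficient of variation of 24.4% and a range of 22.9 to 46.8 CPM (median 30.1). It was at 2.10 to 11.0 CPM in dsRed+ libraries (median 7.80), and GFP+ libraries lay between 0.125 and 2.96 CPM (median 0.935). PSCs were higher than GFP+ cells by 4.74 ± 0.41 (edgeR adjusted p = 7.6e-11) and than dsRed+ cells by 2.21 ± 0.32 (adjusted p = 1.41e-06) on the log2 scale. The test between the latter, which is the test of the difference between both fold changes, gave -2.53 ± 0.38 (adjusted p = 4.81e-06), lower in GFP+ cells. Lrrc4c and Lrrtm1 thus stood in opposite order outside PSCs, and they were the only members called between GFP+ and dsRed+ cells, 1 of 8 lower (15.2% of all genes) and 1 of 8 higher (18.1% of all genes), near the shares of all genes.

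Lrrc4, the ligand of netrin-G2, was low throughout. PSC libraries were between 0 and 5.64 CPM (median 3.71), GFP+ libraries between 0.222 and 3.95 (median 1.82) and dsRed+ libraries between 0.175 and 3.26 (median 1.06), and 4 of the 9 PSC libraries lay above all others. The log2 fold change was 1.42 ± 0.57 against dsRed+ cells (edgeR adjusted p = 0.0451) and 0.91 ± 0.60 against GFP+ cells (adjusted p = 0.226), and the latter was 1.57 without GFP+ libraries 14, 17 and 22 (adjusted p = 0.101). The call against dsRed+ cells was lost in 15 of 27 fits without 1 library (adjusted p of up to 0.0767, without PSC library 23) and was stronger without PSC library 18, which had no count (adjusted p = 0.00814). Snd1, which holds Lrrc4 on the opposite strand with no shared exon base, was also higher in PSCs than in dsRed+ cells, by 0.59 ± 0.20 (adjusted p = 0.0173), and its part in the Lrrc4 counts was not tested.

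**Figure D2:**
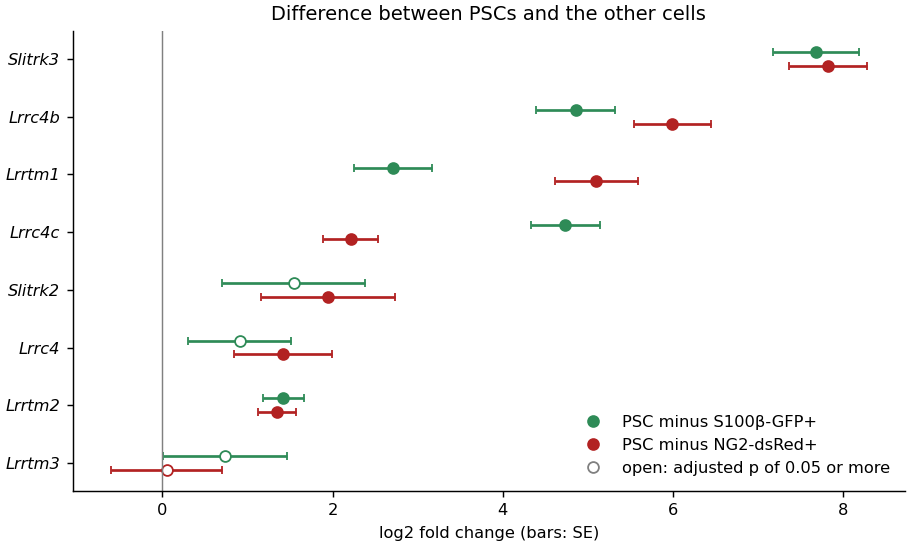
Log2 fold changes with their SE for the 8 members in the fit, PSCs minus GFP+ cells in green and PSCs minus dsRed+ cells in red, with open points at an adjusted p of 0.05 or more. Slitrk3 stands near 8 in both, Lrrtm1 and Lrrc4c lean to opposite sides, and Lrrtm3 lies within about 1 SE of 0.

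Per kilobase of exon, levels can be compared between genes. In PSCs the order of the mean CPM per kb was Slitrk3 at 26.3 ± 11.0, Lrrc4b at 12.4 ± 8.68, Lrrc4c at 7.18 ± 1.75, Lrrtm1 at 4.64 ± 1.70 and Lrrtm2 at 3.48 ± 1.21 (SD, n = 9). After a gap came Lrrc4 at 0.844 ± 0.487, Lrrtm4 at 0.467 ± 0.269, Slitrk2 at 0.443 ± 0.395, Lrrtm3 at 0.410 ± 0.391 and Slitrk6 at 0.0352 ± 0.0777. The gap after Lrrtm2 was the only step at which the ranges of neighbours did not overlap, and Lrrtm2 was above Lrrc4 in 9 of 9 libraries. Slitrk3 was above Lrrc4b in 8 of 9 libraries and Lrrc4b above Lrrc4c in only 5 of 9, so Lrrc4b and Lrrc4c, like the low genes from Lrrc4 to Lrrtm3, did not differ beyond their spread. The order was another one outside PSCs. GFP+ cells were led by Lrrtm2 at 1.30 ± 0.499 and Lrrtm1 at 0.717 ± 0.689 CPM per kb, dsRed+ cells by Lrrc4c at 1.55 ± 0.644 and Lrrtm2 at 1.36 ± 0.367, and Slitrk3, first in PSCs, came ninth and eighth.

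**Figure D3:**
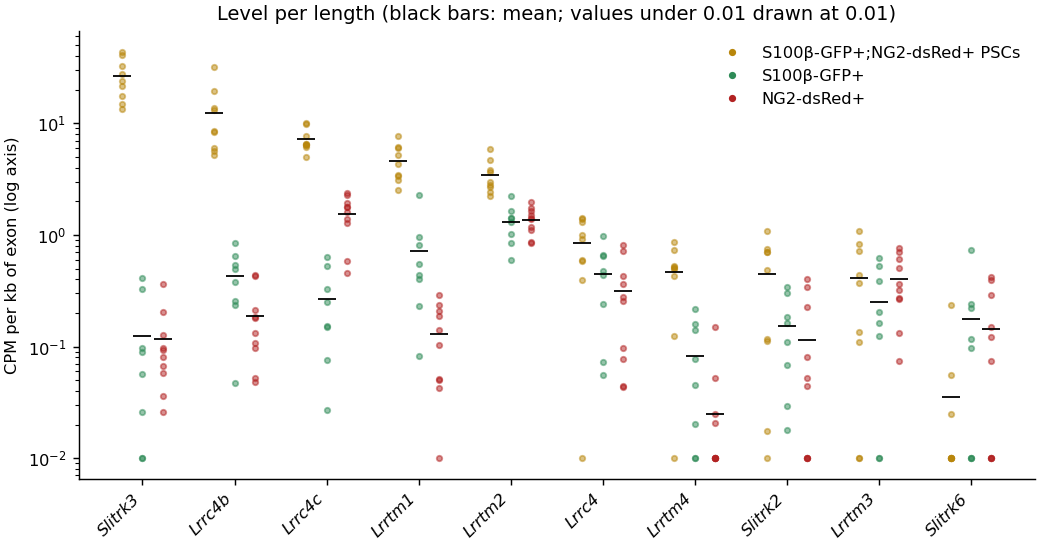
CPM per kb of exon on a log axis for each member, with 1 point per library and the mean as a black bar, and genes in the order of their PSC mean. In PSCs 5 genes form a high set from Slitrk3 to Lrrtm2 and 5 a low set, whereas in dsRed+ cells Lrrc4c and Lrrtm2 stand above the rest.

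The Schwann lineage genes give a scale for the contrast with GFP+ cells, whose mean was 3.99% of the PSC mean for Sox10, 2.68% for Foxd3 and 11.5% for S100b, but 90.1% for Ngfr, the one gene of that list not higher in PSCs. Slitrk3 stood at 0.477% of its PSC mean, below all 7 of these genes, Lrrc4b at 3.46% and Lrrc4c at 3.75%, near Sox10, and Lrrtm1 at 15.4% and Lrrtm2 at 37.5%, between S100b and Ngfr. In dsRed+ cells the shares were 0.44% for Slitrk3, 1.52% for Lrrc4b, 2.82% for Lrrtm1, 21.5% for Lrrc4c and 39.2% for Lrrtm2, where Sox10 was at 0.879% and Ngfr at 115%.

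The PSC libraries differed in a way that moved with some members. Between 3.64% and 36.6% of their counts fell on Lars2, Gm23935 and Gm15564, 3 genes named from earlier results of these data. In the 4 PSC libraries with the highest share, 27.7% or more, Slitrk2 was at 0.939 CPM or less, and in the other 5, at 17.8% or less, it was at 3.92 CPM or more. Slitrk3, Lrrc4b and, less firmly, Lrrtm2 went up with the share. Over the 9 PSC libraries log2 CPM of Slitrk3 had a Pearson r of 0.78 (exact permutation p = 0.0181, adjusted 0.0483 over the 8 members tested) and a Spearman rho of 0.75 (exact p = 0.0255, adjusted 0.0622), and Lrrc4b an r of 0.82 (exact p = 0.0068, adjusted 0.0417) and a rho of 0.83 (exact p = 0.0083, adjusted 0.0622). Each r was taken against the log2 of the share. On that scale PSC libraries 36 and 20, both at the low end of the share, were farthest from the median. Without these 2 libraries r was 0.93 and 0.84. Lrrtm2 had an r of 0.70 (exact p = 0.0377, adjusted 0.0754) and a rho of 0.77 (exact p = 0.0214, adjusted 0.0622), and 0.64 for r without the same 2 libraries. No p of Lrrc4c (r = 0.03, exact p = 0.93), Lrrtm1 (r = 0.26, exact p = 0.499), Lrrtm3 or Lrrc4 passed. Slitrk2 went down with the share, with an r of -0.81 (exact permutation p = 0.0104, adjusted 0.0417) and a rho of -0.73 (exact p = 0.0311, adjusted 0.0622). Without the same 2 libraries its r was -0.80. The PSC libraries fall into separate sets of Slitrk2 level, so this r does not show a graded change. The share also differed between populations, with a median of 17.8% in PSC, 32.6% in GFP+ and 30.4% in dsRed+ libraries. A term for it is therefore partly confounded with the comparison of populations. With the log2 share as a term in the fit, Slitrk3, Lrrtm1, Lrrtm2, Lrrc4b and Lrrc4c were still higher in PSCs than in both other populations. The log2 fold change of Slitrk2 against dsRed+ cells fell from 1.95 to 0.56 (edgeR adjusted p = 0.54). Against GFP+ cells that of Slitrk2 turned from 1.54 to -0.47 (edgeR adjusted p = 0.651), and neither passed the threshold.

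**Figure D4:**
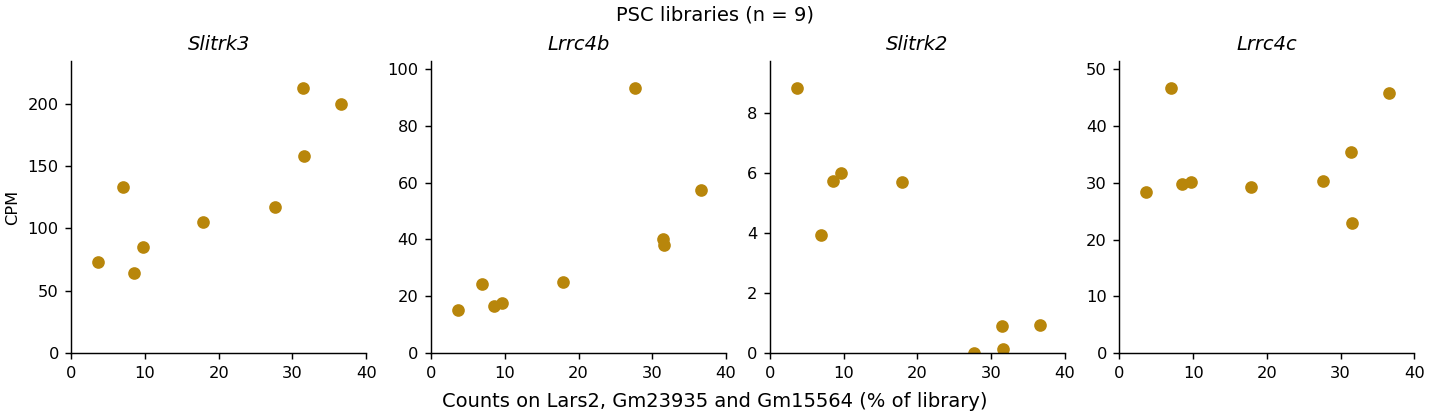
CPM of Slitrk3, Lrrc4b, Slitrk2 and Lrrc4c in the 9 PSC libraries against the percentage of counts on Lars2, Gm23935 and Gm15564, with 1 point per library. Slitrk2 drops to 0.939 CPM or less in the 4 libraries at 27.7% or more, Slitrk3 and Lrrc4b are higher there, and Lrrc4c shows no trend.

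Known binding partners were read in the same cells. Of 17 listed genes 14 passed the filter. Of these, 7 were higher and 4 lower in PSCs than in GFP+ cells (22.9% and 24.1% of all genes). Against dsRed+ cells, 8 were higher and 5 lower (20.9% and 23.1% of all genes). The medians were 1.01 and 1.41 on the log2 scale. All 3 LAR-type phosphatases, the partners of SLITRK proteins and of Lrrc4b, were higher in PSCs than in both. Ptprd had a mean of 155 ± 20.1 CPM in PSCs, 32.8 ± 9.18 in GFP+ cells and 12.9 ± 5.10 in dsRed+ cells (edgeR adjusted p = 3.72e-10 and 1.62e-14). Ptprs and Ptprf were higher by log2 fold changes between 1.37 and 1.60.

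Among the partners of LRRTM proteins, the neurexin gene Nrxn3 had 25.3 ± 8.49 CPM in PSCs, 2.17 ± 2.28 in GFP+ cells and 0.690 ± 0.728 in dsRed+ cells, with log2 fold changes of 3.58 ± 0.58 and 5.18 ± 0.58 (edgeR adjusted p = 7.5e-06 and 2.11e-08). The netrin-G genes, partners of Lrrc4c and Lrrc4, went in opposite directions. Ntng1, which encodes the partner of Lrrc4c, was at 140 ± 90.7 CPM in PSCs against 2.97 ± 0.993 and 4.71 ± 3.58 CPM, and Ntng2, which encodes the partner of Lrrc4, was at 0.480 ± 0.450 CPM against 2.54 ± 1.13 and 2.34 ± 1.16 CPM, lower by -2.36 ± 0.53 (adjusted p = 0.000576) and -2.23 ± 0.52 (adjusted p = 0.00076) on the log2 scale. PSCs thus had RNA of both sides of the pairs Slitrk3 and Ptprd, Lrrtm1 or Lrrtm2 and Nrxn3, and Lrrc4c and Ntng1.

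The proteoglycans were divided. Gpc1 (log2 fold changes 2.85 and 1.76) and Sdc4 (1.63 and 2.39) were higher in PSCs than in both populations. Gpc1 varied widely in PSCs, at 57.8 ± 56.0 CPM (SD), and 5 of the 9 PSC libraries lay above all others. Gpc6 (-2.34 and -1.69), Sdc1 (-2.91 and -1.83) and Sdc2 (-1.81 and -1.66) were lower than in both. Against dsRed+ cells alone, Gpc4 was lower (-1.28, edgeR adjusted p = 0.000484) and Sdc3 higher (1.245, edgeR adjusted p = 0.000382), and Gpc3 passed in neither comparison. Of the PDZ scaffolds that bind the tails of LRRTM and LRRC4 proteins inside neurons, 3 of 4 passed the filter. Dlg4, which encodes PSD-95, passed in neither comparison at 4.73 ± 4.23, 6.88 ± 1.93 and 4.61 ± 2.70 CPM in PSCs, GFP+ and dsRed+ cells (adjusted p = 0.322 and 0.974), Dlg3 was higher than in GFP+ cells alone (1.71 ± 0.31, adjusted p = 4.34e-05) and Dlg1 lower than in dsRed+ cells (-0.56 ± 0.19, adjusted p = 0.0158).

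**Figure D5:**
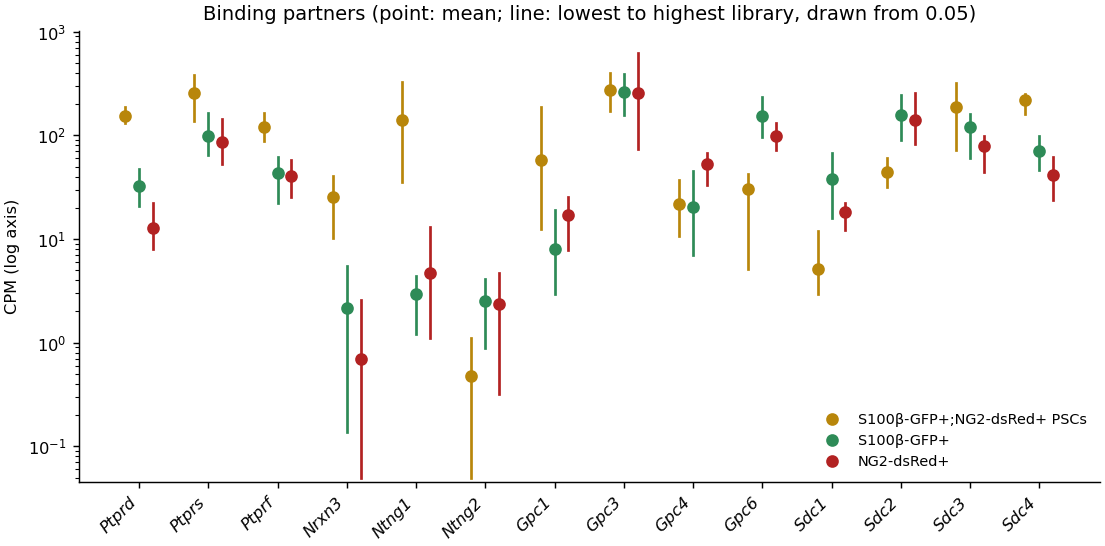
CPM on a log axis of the 14 binding partners that passed the filter, with the mean as a point and a line from the lowest to the highest library of each population. The PSC means of Nrxn3 and Ntng1 stand apart from both other populations, and those of Ntng2, Gpc6, Sdc1 and Sdc2 lie below them.

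Other membrane proteins with leucine-rich repeats were read as well. Of 27 listed genes 18 passed the filter, with 3 higher and 1 lower in PSCs than in GFP+ cells (22.9% and 24.1% of all genes) and 6 higher and 4 lower than in dsRed+ cells (20.9% and 23.1% of all genes), and medians of 0.23 and 0.12 on the log2 scale. Lrrn3 (3.70 ± 0.50 and 4.94 ± 0.50) and the neurotrophin receptor gene Ntrk2 (1.76 ± 0.19 and 1.91 ± 0.17) were higher than in both populations, and Flrt2 (-3.73 ± 0.32 and -2.06 ± 0.29) was lower than in both. Whether these shares differ from those of the 10 members was not tested.

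Across all 27 libraries the genes whose log2 CPM followed Slitrk3 most closely were Col20a1 (Pearson r = 0.98), Spon1 and Bche (both 0.98), Nsg2 (0.97) and C1ql1 (0.97). Bche encodes butyrylcholinesterase, which breaks down acetylcholine. Of the members, Lrrc4b was closest (0.94, place 66 of 15329 genes), followed by Lrrtm1 (0.83, place 415), Lrrtm2 (0.83) and Lrrc4c (0.79, place 619), and Lrrc4 (0.41), Slitrk2 (0.32) and Lrrtm3 (0.04) were far from it. These correlations are descriptions over libraries that share the division into PSCs and other cells.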

How the data were processed

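RNA of the 3 sorted populations was sequenced after SMART-Seq v4 amplification, a kit that does not mark strand. The authors trimmed and aligned the reads (HISAT2, per the submitters' processing notes, build GRCm38) and used HTSeq to count reads on genes. The deposited values are whole-number counts with no normalization. The sources used here do not give the tool versions or the annotation. Of 36 libraries in the labels, 27 have a column. The other 9 were not analysed here. No columns of one population were identical, and counts of each pair were farther apart than sampling noise (chi-square of at least 8.10 per degree of freedom). Labelled ages start at day 15 and end at a day that rises by 1 per sample from 21 to 46, and were not used.

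GENCODE M21 (GRCm38) held 99.56% of the identifiers and gave symbols, exons and overlaps, and a RefSeq table of promoters (GRCm38.p6) matched 9 members with 11 starts, of which 4 were printed. Genes with near-identical copies or antisense partners may share reads. In R 4.3.3, edgeR 4.0.16 was run with TMM, filterByExpr (minimum count 10), one quasi-likelihood fit of all 27 libraries and Benjamini-Hochberg adjustment at 0.05 over 15330 genes. CPM used TMM library sizes and log2 CPM a prior count of 2. An SE is the log2 fold change over the square root of F. Members below the filter had an exact permutation test (Python 3.11.15). Replicate numbers are library numbers and pair nothing.

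The members, lists, partners and motifs were chosen with earlier results of these data known, and the genes named were the members, their hosts, listed genes and the 5 closest to Slitrk3 by Pearson r. The listed genes printed singly were picked after their values were seen. A few genes under this rule are not reported here. Scripts were tested on simulated counts with 200 changed genes. Alternatives were DESeq2 1.42.0 (Wald test, the study's tool), DESeq2 size factors, no filter, only the compared groups, limma-voom 3.58.1 with quality weights, the share of 3 genes as a term, no GFP+ libraries 14, 17 and 22, CPM in place of log2 CPM for permutations, and each library left out. PCR copies are not separate molecules, so limits of detection cover counting error only.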

Additional observations from a re-analysis of the deposited data

Results flagged for a closer look

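Among 30 sets of values (10 members in 3 populations), 5 had a highest library whose gap to the next exceeded Dixon's 95% limit. That limit is passed about 1 in 20 times by chance only if values are normally distributed. CPM values near 0 are skewed, so the 5 sets are not read as an excess over chance. The Slitrk3 level of dsRed+ library 13 was 1.78 CPM with the next at 0.993. The Slitrk6 level was 1.00 CPM in PSC library 31, which also held most Col2a1 counts, with the next at 0.237, and 3.13 CPM in GFP+ library 22, which had the most genes with a count, with the next at 1.02. The Lrrtm1 level of GFP+ library 33 was 6.88 CPM with the next at 2.91, and this library had the highest Sox10 share of its group (33.5 per 1000000 counts). The Lrrtm4 level of dsRed+ library 21 was 0.927 CPM with the next at 0.323. Apart from Lrrtm1 these levels rest on few counts, and their sources were not tested.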

How the results depend on the processing

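Slitrk3, Lrrtm1, Lrrtm2, Lrrc4b and Lrrc4c stayed higher in PSCs than in both other populations under all alternatives run. The number of members higher in PSCs than in GFP+ cells was 5 or 6, and than in dsRed+ cells 5 to 8. Lrrtm4 was added where it entered the fit, which among the 27 fits without 1 library were the 8 that left out a GFP+ library. With limma-voom the member added against GFP+ cells was Lrrc4. Members higher in GFP+ than in dsRed+ cells numbered 1, became 2 with DESeq2 and with the share of 3 genes as a term (Lrrc4b added, adjusted p = 0.044 and 0.0474), were 0 with only those populations in the fit (Lrrtm1 then fell below the filter), and were 1 to 2 without 1 library (2 without dsRed+ library 9 or 35, GFP+ library 11 or PSC library 18). Lrrc4c was lower in each. Without a filter 16556 genes changed between PSCs and GFP+ cells (7198 reported) and 10586 between GFP+ and dsRed+ cells (5099 reported), of which 7793 and 4616 had at most 30 counts over all libraries. The calls of Slitrk2 and Lrrc4 against dsRed+ cells are fragile: without a filter their adjusted p was 0.0518 and 0.0667, with the share as a term 0.54 and 0.0673 (log2 fold changes of 0.56 and 1.35), and for Slitrk2 0.0549 without GFP+ libraries 14, 17 and 22. Lrrc4 against GFP+ cells passed with limma-voom (1.45, adjusted p = 0.0223). The cause of these changes was not tested. Permutations on CPM changed no call. No paired analysis was possible because no library number occurs in more than 1 population. The labels used here do not say whether populations were sorted from the same mouse, and the tests treated all libraries as independent. Levels of a few CPM rest on few counts, so small changes of the low members were not detectable at this depth.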
